A study of Homo sapiens with 6 samples.

Results

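The 33 genes described here encode the enzymes of the tricarboxylic acid (TCA) cycle, the route by which pyruvate enters it, and the reactions and carriers that refill or drain it. They were chosen by pathway membership, and all 33 were found among the 60107 gene IDs of the deposited count table. RNA was measured by stranded mRNA sequencing in the human embryonic stem cell line H9, collected at the end of day 9 of a directed differentiation toward nephron progenitor cells, the cells that give rise to the nephrons of the kidney. In 3 libraries the cells had been kept in complete medium, which holds glutamine, and in 3 libraries glutamine was absent from day 0 on. All 6 libraries share the cell line, the protocol and the day of collection, and no genetic change is named for either group. The design asks how expression on day 9 differs when glutamine is withheld, in 1 cell line only. The labels do not say whether the libraries of a group came from separate cultures, so p-values measure only the spread between these libraries. The cells were not sorted, and in such bulk samples fewer cells of a type and less RNA per cell cannot be told apart.

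The TCA cycle oxidises acetyl-CoA, made from pyruvate by the pyruvate dehydrogenase complex, and passes electrons to the respiratory chain. Its intermediates also leave for biosynthesis: citrate for lipids and oxaloacetate for aspartate. They are replaced by anaplerosis, mainly the carboxylation of pyruvate and the conversion of glutamine through glutamate to 2-oxoglutarate. Glutamine is known as a main source of TCA carbon in cultured pluripotent and other proliferating cells.

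The libraries held 78220507 to 84746566 counts, of which the 33 genes took 0.234% to 0.256%. No member had fewer than 176 counts in any library. Replicate 1 with glutamine stood apart from its group. Across genes, which are not independent replicates, its log2 CPM (CPM: counts set to the same total in each library after TMM normalization) had a Pearson correlation of 0.9758 and 0.9762 with the other 2 libraries with glutamine, and of 0.9908 to 0.9927 with the 3 libraries without. Members on which the results turn are therefore given by library, and calls are given with and without that replicate. That replicate was singled out from these same values. Adjusted p-values from fits without it are thus descriptive and are not valid error rates. The columns of the table name day 0 and day 9, whereas the labels place all 6 samples on day 9. The description of each sample names its column, which fixed the assignment on which every direction rests. All 10 nephron progenitor markers on the list used had at least 1 CPM in a library, and their summed level was 643 to 975 CPM with glutamine, highest in replicate 1, and 923 to 1171 CPM without. Single markers went both ways. The means of SIX2, EYA1, OSR1 and CITED1 were lower without glutamine (23.1 and 8.25 CPM for SIX2). By replicate number, SIX2 was at 6.57, 34.8 and 27.8 CPM with glutamine and at 9.70, 7.80 and 7.27 CPM without. For SIX2, replicate 1 with glutamine was thus the lowest of all 6 libraries. The means of the other 6 markers were higher (60.0 and 197 CPM for PAX2). PAX2 was at 150, 17.0 and 12.9 CPM with glutamine and at 245, 200 and 146 CPM without, groups that overlapped through replicate 1. Over all 6 libraries edgeR called none of the 10, against 0.00442% of all genes. DESeq2, which called 14.4% of all genes, called GDNF (adjusted p = 0.000234), EYA1 (adjusted p = 0.0177) and OSR1 (adjusted p = 0.018). Once replicate 1 with glutamine was dropped, edgeR called all 10, each on the same side, where it called 41.3% of all genes. Their edgeR adjusted p then ran from 1.93e-07 for LHX1 to 0.0103 for CITED1. The pluripotency genes NANOG and POU5F1 had at most 13 counts, and the endoderm genes SOX17 and FOXA2 stayed under 1 CPM. The 3 somite markers summed to 39.7 to 75.6 CPM with glutamine and 50.5 to 61.2 CPM without. For the 2 primitive streak markers the sums were 0.370 to 2.25 and 0.430 to 0.611 CPM, with TBXT under 1 CPM in all libraries. The 2 neural markers summed to 3.48 to 4.26 and 3.17 to 3.48 CPM, with SOX1 under 1 CPM, and the 2 endothelial markers to 1.81 to 2.91 and 0.674 to 0.955 CPM. The part that differences in cell makeup have in the results below was not tested.

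As a group, the TCA genes differed little between the 2 media. Their median log2 fold change, without against with glutamine, was 0.07, against 0.00 for all 22613 genes tested, and their median absolute log2 fold change was 0.13, against 0.25 for all genes. Their spread within a group was smaller too. The median SD was 9.26% of the mean with glutamine and 5.75% without, against 14.3% and 9.52% for all genes. The part of count level in these differences from all genes was not tested. The members' log2 fold changes ran from -0.51 for SUCLG2, a subunit of the GTP-forming succinyl-CoA ligase, to 0.85 for ME3, a mitochondrial malic enzyme. There were 23 members on the higher and 10 on the lower side, 12 lay within 0.1 of 0, and 8 differed by at least 0.3. With upper quartile scaling 5 of the 23, namely PDHB, DLAT, IDH3G, DLST and FH, came to lie on the lower side. These 8 were ME3, SLC25A1, PCK2, IDH1, SLC25A10 and MPC2, all higher without glutamine, and SUCLG2 and SDHC, both lower. The summed level of the 33 genes was 2400 ± 85.9 CPM (SD, n = 3) with glutamine and 2493 ± 81.8 CPM (SD, n = 3) without, a difference of 3.87% (two-sided exact permutation p = 0.2, where the smallest p that 3 against 3 allows is 0.1).

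No member passed an adjusted p of 0.05 in edgeR's quasi-likelihood test with Benjamini-Hochberg adjustment over all genes, a threshold that 0.00442% of the genes tested passed (1 gene). The members' adjusted p from edgeR ran from 0.0694 for PCK2 to 0.99. At an unadjusted p under 0.05, edgeR gave 9 of 33 members, or 27.3%, against 29.7% of all genes. Of these, 6 were higher without glutamine (14.7% of all genes) and 3 lower (15.0% of all genes), a split that upper quartile scaling turned to 4 and 5 and library size scaling to 5 and 5. DESeq2 gave an adjusted p under 0.05 for 6 members, or 18.2%, against 14.4% of all genes: IDH1, PCK2, ME3 and SLC25A1 higher, SUCLG2 and SDHC lower. Limma-voom called none of the members and 0% of all genes. The members' shares under these tests lie near those of all genes.

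For 12 members, or 36.4%, the 3 libraries without glutamine did not overlap with the 3 libraries with it, against 34.2% of all genes. There were 9 higher without glutamine (17.3% of all genes) and 3 lower (16.9% of all genes). Upper quartile scaling and scaling by library size each gave 6 higher and 5 lower members, and the shares of all genes moved too, to 13.4% higher and 21.9% lower and to 15.6% and 18.5%. The 9 higher members were MPC1, MPC2, IDH1, IDH3A, OGDH, SDHA, PCK2, ME3 and SLC25A1, and the 3 lower members were CS, SUCLG2 and SDHC. Upper quartile scaling took out MPC1, IDH3A and SDHA, and library size scaling took out IDH3A, OGDH and SDHA. Both brought in PDHX and ME2 on the lower side. DESeq2 size factors put SLC25A11 in the place of IDH3A.

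With replicate 1 of the group with glutamine left out, 15 members, or 45.5%, passed the edgeR threshold, against 41.3% of the 23164 genes then tested. Of these, 10 were higher without glutamine (22.3% of all genes) and 5 were lower (19.0% of all genes). The 10 were MPC2, ACO1, IDH1, IDH2, OGDH, SDHA, PCK2, ME3, SLC25A1 and SLC25A10, and the 5 were PDHX, CS, SUCLG2, SDHC and ME2. The groups then did not overlap for 23 members, against 63.3% of all genes, and the members' median log2 fold change was again 0.07. In 26 of the 33 members, or 78.8%, the log2 CPM of replicate 1 with glutamine lay nearer the mean of the 3 libraries without glutamine than the mean of the other 2 libraries of its own group, against 62.1% of all genes. The other 7 members were MPC1, CS, IDH3B, SDHB, SDHD, MDH1 and PCK2. What set that library apart was not tested.

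**Figure D1:**
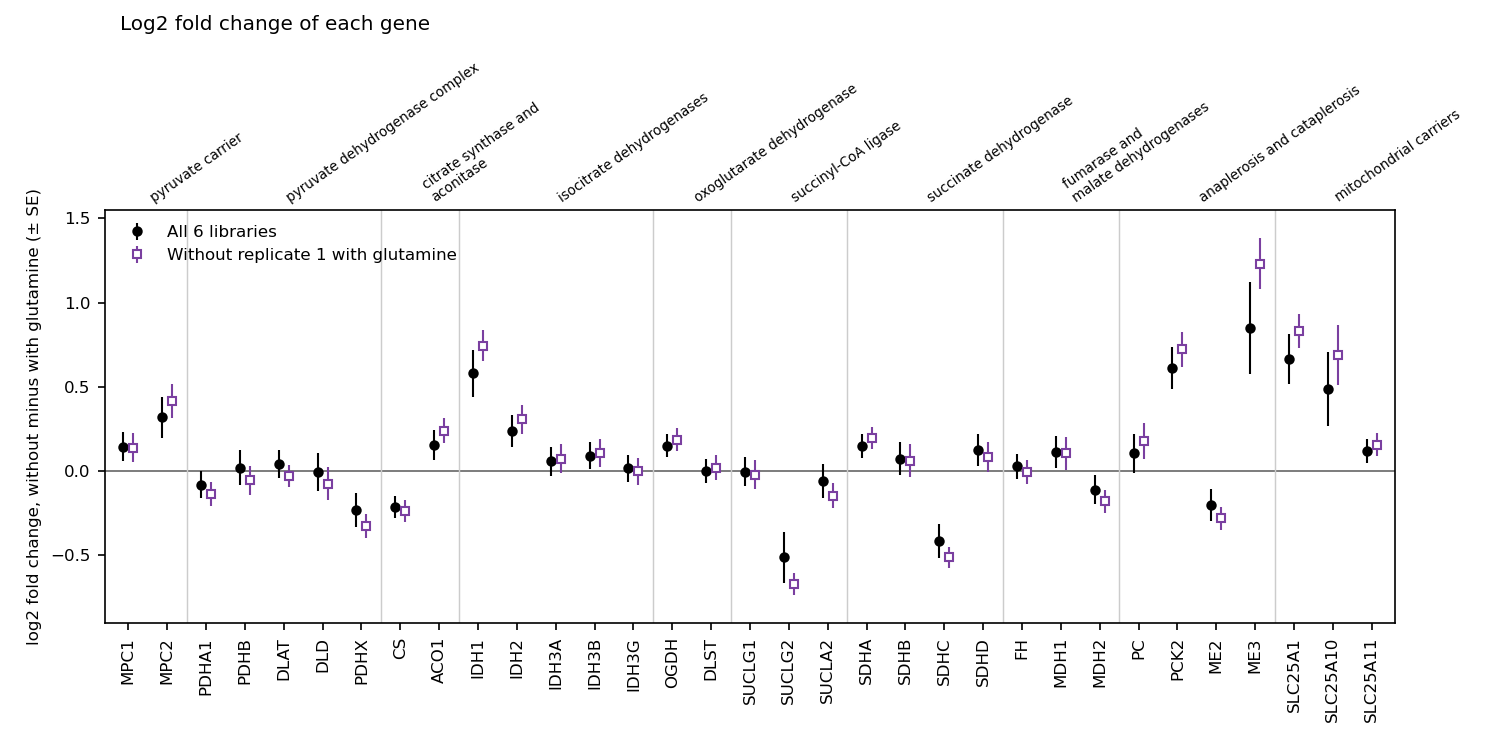
The vertical axis gives the log2 fold change (without minus with glutamine) of each of the 33 genes, ordered by step, with bars for the SE. Filled circles stand for the edgeR fit of all 6 libraries and open squares for the fit without replicate 1 with glutamine: the furthest values, -0.51 for SUCLG2 and 0.85 for ME3, move to -0.67 and 1.23 in the latter.

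Pyruvate enters mitochondria through a carrier of 2 subunits. MPC2, on chromosome 1 (167916729 to 167937040, minus strand, GRCh38), was at 16.7, 12.4 and 15.4 CPM in the libraries with glutamine, in order of their replicate number here and below, and at 18.6, 18.8 and 18.2 CPM in those without. Each library without glutamine lay above each library with it, and the means were 14.8 ± 2.23 and 18.5 ± 0.335 CPM (SD, n = 3 each). The log2 fold change was 0.32 ± 0.12 (SE), at an adjusted p of 0.142 in edgeR, and it was 0.42 (edgeR adjusted p = 0.0101) when replicate 1 with glutamine was left out. Exons of the DCAF6 gene on the other strand cover 22.5% of the MPC2 exons, and the strand setting of the counting is not given in the sources used here, so the counts of this pair are uncertain. MPC1, the other subunit, was at 18.1, 18.2 and 18.8 CPM with glutamine and at 19.0, 20.5 and 21.4 CPM without. These groups did not overlap either, with a log2 fold change of 0.14 ± 0.08 (SE), at an adjusted p of 0.277 in edgeR. MPC1 was not called by edgeR with or without replicate 1.

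The pyruvate dehydrogenase complex turns pyruvate into acetyl-CoA, and after TMM normalization none of its 5 members had groups that did not overlap. PDHA1 and PDHB form its decarboxylating component, DLAT its acetyltransferase core, and DLD the dehydrogenase that it shares with the oxoglutarate complex. Over all 6 libraries PDHA1 ran from 83.5 to 98.6 CPM, PDHB from 59.3 to 74.2, DLAT from 76.6 to 90.6 and DLD from 115 to 144. Their log2 fold changes were -0.08, 0.02, 0.04 and -0.01. Exons of MAP3K15 on the other strand cover 21.3% of the PDHA1 exons, and MAP3K15 held counts equal to 1.25% of those of PDHA1. PDHX, which ties DLD to the core, was at 40.1, 48.3 and 51.0 CPM with glutamine and at 38.2, 40.2 and 40.2 CPM without. Replicate 1 with glutamine lay among the libraries without it, and the other 2 lay above. With upper quartile or library size scaling the PDHX groups did not overlap. For PDHX the log2 fold change was -0.23 ± 0.10 (SE), at an adjusted p of 0.178 in edgeR, and -0.33 without that replicate (edgeR adjusted p = 0.00499). The complex as a sum was at 380, 433 and 458 CPM with glutamine and at 385, 428 and 430 CPM without, overlapping ranges in which replicate 1 was the lowest of each group.

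Citrate synthase, encoded by CS, joins acetyl-CoA to oxaloacetate. CS, on chromosome 12 (56271699 to 56300392, minus strand), was at 178, 186 and 190 CPM with glutamine and at 152, 164 and 162 CPM without. All 3 libraries without glutamine were below all 3 with it, and here replicate 1 sat with its own group. The means were 185 ± 6.21 and 159 ± 6.5 CPM (SD, n = 3 each), with a log2 fold change of -0.21 ± 0.07 (SE; 95% interval -0.37 to -0.06; edgeR adjusted p = 0.0983). Without replicate 1 it was -0.24 with an edgeR adjusted p of 0.0174. ACO1, the cytosolic aconitase that also serves as an iron-responsive RNA-binding protein, was at 65.7, 55.1 and 56.8 CPM with glutamine and at 62.5, 66.4 and 68.9 CPM without. Only replicate 1 with glutamine reached into the range of the other group. In the fit of all 6 libraries ACO1 had a log2 fold change of 0.15, with no call, and 0.24 without replicate 1 (edgeR adjusted p = 0.0244).

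Isocitrate dehydrogenases make 2-oxoglutarate, which glutamine also supplies. IDH1 is the cytosolic NADP-dependent form and IDH2 its mitochondrial counterpart, while IDH3A, IDH3B and IDH3G encode the NAD-dependent enzyme of the cycle itself. IDH1, on chromosome 2 (208236227 to 208266074, minus strand), was at 172, 122 and 133 CPM with glutamine and at 191, 219 and 229 CPM without. The groups did not overlap, and replicate 1 was the library with glutamine that came nearest to the other group. The means were 142 ± 26.6 and 213 ± 19.8 CPM (SD, n = 3 each), 1.5-fold higher without glutamine, with a log2 fold change of 0.58 ± 0.14 (SE; 95% interval 0.25 to 0.91; edgeR adjusted p = 0.0737). IDH1 was called by DESeq2 (adjusted p = 0.00462) and, at a log2 fold change of 0.75, by edgeR without replicate 1 (adjusted p = 0.000155).

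IDH2 was at 188, 159 and 173 CPM with glutamine and at 220, 207 and 186 CPM without. Replicate 1 with glutamine overlapped with the lowest library without it. The log2 fold change was 0.24 ± 0.09 (SE), at an adjusted p of 0.149 in edgeR, and it was 0.31 without replicate 1 (edgeR adjusted p = 0.0168). The NAD-dependent subunits were nearly level between the media. IDH3A was at 12.4, 11.8 and 12.4 CPM with glutamine and at 12.5, 12.9 and 12.7 CPM without. These groups did not overlap although the log2 fold change was 0.06, and they overlapped under each of the other scalings. Exons of ACSBG1 on the other strand cover 38.2% of the IDH3A exons, which leaves its counts uncertain. IDH3B ran from 67.7 to 80.8 CPM and IDH3G from 27.8 to 31.0 CPM over the 6 libraries. Their groups overlapped, with log2 fold changes of 0.09 and 0.02. Exons of SSR4 on the other strand cover 10.2% of the IDH3G exons, and SSR4 held counts equal to 319% of those of IDH3G.

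Oxoglutarate dehydrogenase consumes 2-oxoglutarate, and OGDH encodes its decarboxylating component and DLST its succinyltransferase core. OGDH was at 83.9, 76.2 and 81.0 CPM with glutamine and at 90.4, 88.9 and 88.4 CPM without. The groups did not overlap, the log2 fold change was 0.15 ± 0.07 (SE), at an adjusted p of 0.181 in edgeR, and it was 0.19 without replicate 1 (edgeR adjusted p = 0.0481). DLST ran from 96.4 to 107 CPM over all 6 libraries, with a log2 fold change of 0.00.

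Succinyl-CoA ligase pairs a common subunit, SUCLG1, with either SUCLG2, which makes the enzyme GTP-forming, or SUCLA2, which makes it ATP-forming. SUCLG2, on chromosome 3 (67360460 to 67654614, minus strand), was at 53.3, 77.5 and 79.8 CPM with glutamine and at 50.0, 48.8 and 48.8 CPM without. The 3 libraries without glutamine lay close together and under all libraries with it, while replicate 1 with glutamine lay near them. The means were 70.2 ± 14.7 and 49.2 ± 0.666 CPM (SD, n = 3 each), with a log2 fold change of -0.51 ± 0.15 (SE; 95% interval -0.87 to -0.16; edgeR adjusted p = 0.0905). SUCLG2 was called by DESeq2 (adjusted p = 0.0281) and, at a log2 fold change of -0.67, by edgeR without replicate 1 (adjusted p = 3.94e-05). SUCLA2 was at 65.2, 77.2 and 81.9 CPM with glutamine and at 66.6, 73.4 and 75.3 CPM without, and SUCLG1 ran from 55.1 to 64.6 CPM. Both had overlapping groups, with log2 fold changes of -0.06 and -0.0042, so of this enzyme only the GTP-specific subunit had groups that did not overlap.

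Succinate dehydrogenase is both a TCA enzyme and complex II of the respiratory chain. Its catalytic subunits are SDHA and SDHB, and SDHC and SDHD anchor it in the inner membrane. SDHC, on chromosome 1 (161314257 to 161375340, plus strand), was at 99.9, 125 and 126 CPM with glutamine and at 87.5, 85.9 and 89.4 CPM without. The groups did not overlap, and replicate 1 lay between the other libraries of its group and the libraries without glutamine. The means were 117 ± 14.7 and 87.6 ± 1.76 CPM (SD, n = 3 each), with a log2 fold change of -0.42 ± 0.10 (SE; 95% interval -0.65 to -0.18; edgeR adjusted p = 0.0736). SDHC was called by DESeq2 (adjusted p = 0.0208) and, at a log2 fold change of -0.51, by edgeR without replicate 1 (adjusted p = 0.000185).

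The other 3 subunits of complex II lay on the higher side. SDHA was at 50.4, 45.5 and 46.6 CPM with glutamine and at 52.9, 52.9 and 52.2 CPM without. Its groups did not overlap, its log2 fold change was 0.15 (edgeR adjusted p = 0.205), and it was 0.20 without replicate 1 (edgeR adjusted p = 0.0389). The SDHA pseudogenes SDHAP1 and SDHAP3 held counts equal to 15.5% and 11.6% of those of SDHA, and reads may be split between them. SDHB ran from 30.3 to 36.4 CPM and SDHD from 25.8 to 31.1 CPM, with overlapping groups and log2 fold changes of 0.07 and 0.13.

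Fumarase (FH) and the malate dehydrogenases close the cycle, and none of the 3 had groups that did not overlap. FH ran from 98.2 to 112 CPM, with a log2 fold change of 0.03. MDH1, the cytosolic malate dehydrogenase of the malate-aspartate shuttle, was at 164, 158 and 177 CPM with glutamine and at 157, 187 and 195 CPM without. MDH2, the mitochondrial enzyme of the cycle, was at 142, 161 and 171 CPM with glutamine and at 146, 152 and 142 CPM without. The log2 fold changes of the pair were 0.11 and -0.11, with overlapping groups and no edgeR call.

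**Figure D2:**
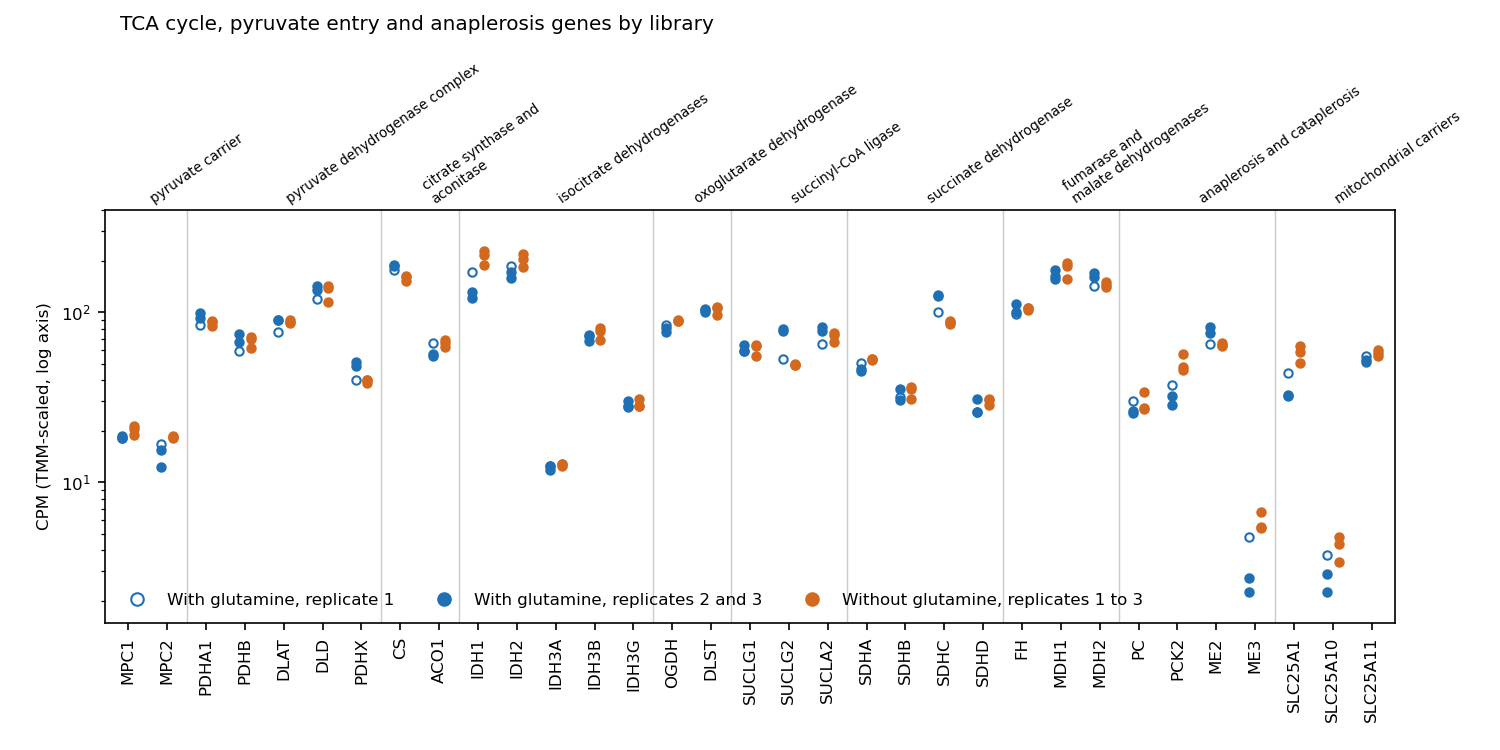
The logarithmic vertical axis gives the TMM-scaled CPM of each of the 33 genes, ordered by step, with 1 point per library. Blue is with glutamine (open for replicate 1) and orange is without: in SUCLG2 and SDHC the open point is the lowest of its group (53.3 and 99.9 CPM) and in IDH1 the highest (172 CPM), in each case on the side of the libraries without glutamine.

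The highest fold change was found among the members that refill or drain the cycle. Pyruvate carboxylase (PC) makes oxaloacetate from pyruvate, PCK2 makes phosphoenolpyruvate from oxaloacetate inside mitochondria, and ME2 and ME3 are mitochondrial malic enzymes that turn malate into pyruvate. PCK2, on chromosome 14 (24094053 to 24110598, plus strand), was at 37.5, 28.6 and 32.3 CPM with glutamine and at 47.7, 56.6 and 46.0 CPM without. The groups did not overlap, and replicate 1 was nearer its own group. The means were 32.8 ± 4.47 and 50.1 ± 5.69 CPM (SD, n = 3 each), 1.53-fold higher without glutamine. The log2 fold change was 0.61 ± 0.13 (SE; 95% interval 0.31 to 0.91), and the edgeR adjusted p of 0.0694 was the lowest of the 33. PCK2 was called by DESeq2 (adjusted p = 0.00113) and, at a log2 fold change of 0.72, by edgeR without replicate 1 (adjusted p = 0.000488).

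ME3, on chromosome 11 (86441108 to 86672636, minus strand), was at 4.76, 2.25 and 2.75 CPM with glutamine and at 5.49, 6.70 and 5.42 CPM without. All libraries without glutamine were higher, but replicate 1 with glutamine lay closer to the libraries without it. The means were 3.25 ± 1.33 and 5.87 ± 0.719 CPM (SD, n = 3 each), 1.8-fold higher without glutamine on the fitted scale, at low counts compared with the other members. The log2 fold change was 0.85 ± 0.27 (SE; 95% interval 0.21 to 1.49; edgeR adjusted p = 0.105), with a call by DESeq2 (adjusted p = 0.0151). Without replicate 1 it was 1.23 (edgeR adjusted p = 0.000187).

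ME2, which is far more abundant, lay on the other side. It was at 65.6, 75.3 and 82.0 CPM with glutamine and at 64.6, 65.6 and 63.5 CPM without. Replicate 1 with glutamine was level with the highest library without it, and the other 2 were above. With upper quartile or library size scaling the ME2 groups did not overlap. For ME2 the log2 fold change was -0.20 (edgeR adjusted p = 0.193) and -0.28 without replicate 1 (edgeR adjusted p = 0.00969). PC was at 29.9, 25.8 and 26.5 CPM with glutamine and at 33.9, 27.3 and 27.1 CPM without, with overlapping groups and a log2 fold change of 0.11 that came to -0.0052 when replicate 1 without glutamine was left out. Exons of LRFN4 on the other strand cover 10.5% of the PC exons.

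Mitochondrial carriers move the intermediates. SLC25A1 exports citrate to the cytosol in exchange for malate, SLC25A10 carries dicarboxylates, and SLC25A11 exchanges 2-oxoglutarate for malate. SLC25A1, on chromosome 22 (19175575 to 19178830, minus strand), was at 43.9, 32.6 and 32.1 CPM with glutamine and at 63.2, 58.5 and 50.4 CPM without. The groups did not overlap, and replicate 1 was the highest library with glutamine. The means were 36.2 ± 6.69 and 57.4 ± 6.49 CPM (SD, n = 3 each), 1.59-fold higher without glutamine, with a log2 fold change of 0.67 ± 0.15 (SE; 95% interval 0.32 to 1.01; edgeR adjusted p = 0.0706). SLC25A1 was called by DESeq2 (adjusted p = 0.00127) and, at a log2 fold change of 0.83, by edgeR without replicate 1 (adjusted p = 0.000149).

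SLC25A10, on chromosome 17 (81712236 to 81721016, plus strand), was at 3.72, 2.27 and 2.90 CPM with glutamine and at 4.32, 4.77 and 3.39 CPM without. Its groups overlapped through replicate 1. The log2 fold change was 0.49 ± 0.22 (SE), at an adjusted p of 0.184 in edgeR, and it was 0.69 without that replicate (edgeR adjusted p = 0.0123). Another gene model on the same strand, AC139530.2, covers 46.6% of its exons and held 0 counts. SLC25A11 ran from 51.3 to 59.8 CPM, with overlapping groups and a log2 fold change of 0.12.

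Sequence upstream of the starts was examined for letters that the members share. RefSeq starts on GRCh38.p14 were found for 31 of the 33 members, at 41 starts, and not for OGDH and SDHC. In the 250 bases before each start, both strands were searched for 6 motifs, and the share of all 35116 promoter windows holding each one is given beside it. TGATGNAAN, the composite site of the amino acid response factor ATF4, was in 1 member start (2.44%) against 3.13% of all windows, that of SLC25A11. TCACCCCAC, a site of the sterol factor SREBP, was in 0 member starts against 0.362%, and AAGATGGC, of YY1, in 0 against 1.36%. AAGGTCA, a site of estrogen-related receptors, was in 4.88% of member starts (SDHB and SUCLA2) against 3.44%. CCGGAAGT, of the ETS factor GABPA, was in 9.76% (DLST, IDH3B, MDH2 and SDHD) against 3.42%, and GCGCATGCG, of the respiratory factor NRF1, in 2.44% (SDHD) against 1.64%. A match is a description of letters and not of binding, and at 41 starts the shares rest on 0 to 4 matches.

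The next 4 sequences are printed 5′ to 3′ on the strand of the gene, cut to bases that lie in no GENCODE exon of that gene. They let the promoters of 2 members that were higher without glutamine be read beside that of 1 lower member, and beside SDHD, whose window holds the NRF1 letters on both strands with overlap. Capitals mark those letters, and the other 3 stretches hold none of the 6 motifs. IDH1 is at chr2:208255134-208255321 (minus strand, inside the GENCODE span of the gene), SLC25A1 at chr22:19178831-19178986 (minus strand), SUCLG2 at chr3:67654615-67654862 (minus strand) and SDHD at chr11:112086623-112086772 (plus strand). GC content was 66.0%, 81.4%, 71.4% and 66.7%. Exons of other genes were not cut out. TIMM8B, on the other strand, shares 26 exon bases with SDHD, so the SDHD stretch may hold TIMM8B exon.
IDH1: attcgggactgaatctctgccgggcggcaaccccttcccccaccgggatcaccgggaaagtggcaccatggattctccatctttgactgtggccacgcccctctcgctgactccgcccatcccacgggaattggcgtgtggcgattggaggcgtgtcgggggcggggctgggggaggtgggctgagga
SLC25A1: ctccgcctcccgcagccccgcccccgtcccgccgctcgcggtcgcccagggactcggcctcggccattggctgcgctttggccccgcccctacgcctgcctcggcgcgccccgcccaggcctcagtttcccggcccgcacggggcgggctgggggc
SUCLG2: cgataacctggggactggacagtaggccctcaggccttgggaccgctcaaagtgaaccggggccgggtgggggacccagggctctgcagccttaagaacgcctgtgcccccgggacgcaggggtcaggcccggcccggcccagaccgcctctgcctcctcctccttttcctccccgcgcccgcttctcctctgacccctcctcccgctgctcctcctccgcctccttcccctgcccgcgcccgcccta
SDHD: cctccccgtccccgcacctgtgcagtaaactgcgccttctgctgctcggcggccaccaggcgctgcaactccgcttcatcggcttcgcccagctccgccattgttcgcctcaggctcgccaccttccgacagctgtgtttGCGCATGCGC

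Levels can be compared between genes only per length, so CPM was divided by the length of the principal transcript of each gene. MDH1 had the highest level with glutamine, at 101 ± 6.0 CPM per kb (SD, n = 3), followed by MDH2 at 71.6, IDH2 at 64.3, CS at 62.1, IDH1 at 58.3 and FH at 57.5 CPM per kb. From IDH2 to FH, each neighbour in that order differed from the next by less than the larger SD of the 2, while MDH2 and IDH2 differed by slightly more than that. At the other end were IDH3A at 2.96, SLC25A10 at 1.57 and ME3 at 1.41 CPM per kb. Without glutamine, IDH1 stood at 87.2 ± 8.12 CPM per kb, which put it in place 2 instead of 5. SLC25A1 went from place 17 to 12, PCK2 from place 25 to 19, and SUCLG2 from place 13 to 21. IDH3A was low beside IDH3B, its partner in the same enzyme, which stood at 46.1 CPM per kb. Per kb of merged exons of all transcripts, IDH3A was at 1.79 and IDH3B at 27.8 CPM. The exon overlap of IDH3A with ACSBG1 leaves this comparison uncertain. The order depends on the length used: over merged exons of all transcripts, IDH2 came first and MDH1 came in place 4.

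**Figure D3:**
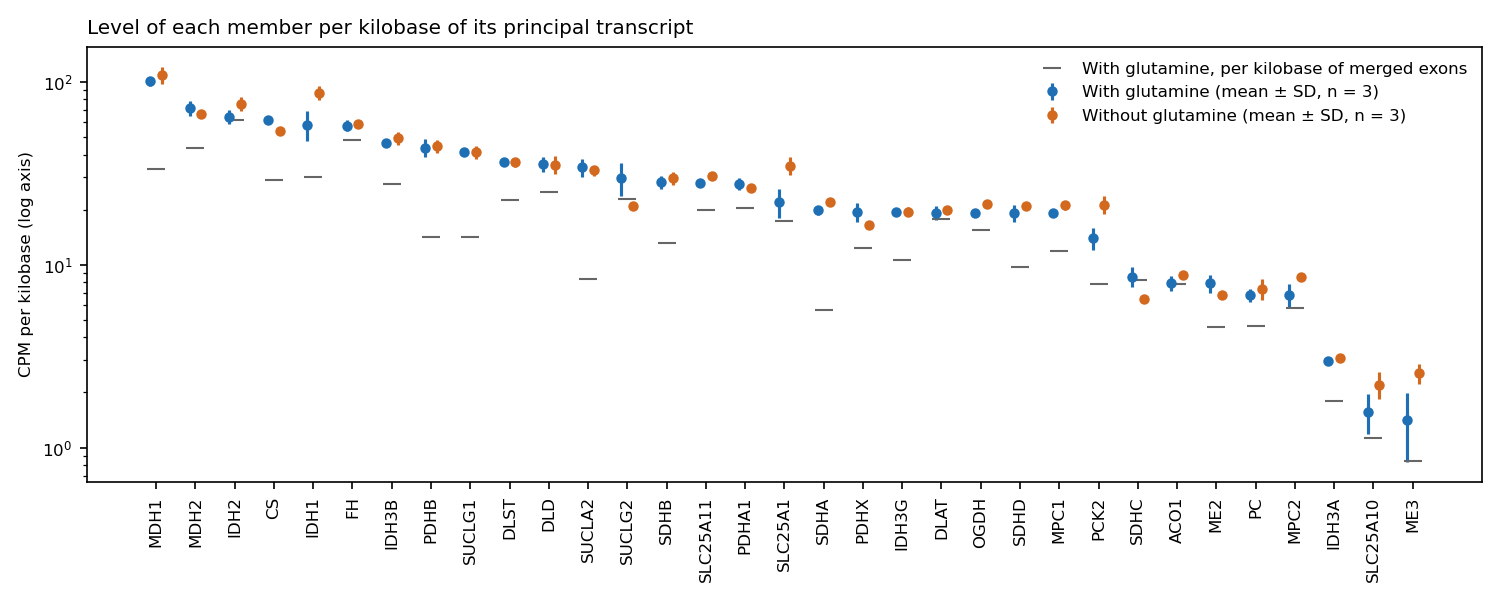
The logarithmic vertical axis gives the mean CPM per kb of principal transcript with its SD (n = 3 each), with glutamine in blue and without in orange, for the 33 genes ranked from left to right by the level with glutamine. Grey dashes give the level with glutamine over merged exons, and the ranking runs from MDH1 (101 CPM per kb) to ME3 (1.41 CPM per kb).

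Log2 ratios of counts were compared for 7 pairs of members: forms of an enzyme that differ in compartment or cofactor, the 2 carrier subunits, and enzymes that act on pyruvate or oxaloacetate. The ratio of ME2 to ME3 was 3.78, 5.06 and 4.90 with glutamine and 3.56, 3.29 and 3.55 without, with no overlap. The difference was -1.11 (two-sided exact permutation p = 0.1, Benjamini-Hochberg adjusted over 7 pairs 0.233). The ratio of SUCLA2 to SUCLG2 went from 0.11 ± 0.16 (SD, n = 3) with glutamine to 0.54 ± 0.11 (SD, n = 3) without, also with no overlap, a difference of 0.44 (exact permutation p = 0.1, adjusted 0.233). The ratio of PCK2 to PC went from 0.25 ± 0.09 (SD, n = 3) to 0.77 ± 0.28 (SD, n = 3), with no overlap and a difference of 0.51 (exact permutation p = 0.1, adjusted 0.233). Since 3 libraries against 3 cannot give a p under 0.1, none of these could pass 0.05.

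The other 4 ratios overlapped between the media. The cytosolic to mitochondrial ratios IDH1 to IDH2 and MDH1 to MDH2 differed by 0.35 and 0.22, each with an exact permutation p of 0.2 (adjusted 0.28). MPC1 to MPC2 differed by -0.19 (exact permutation p = 0.3, adjusted 0.35). PC to PDHA1, the anaplerotic against the oxidative entry of pyruvate, differed by 0.18 (exact permutation p = 0.5, adjusted 0.5).

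**Figure D4:**
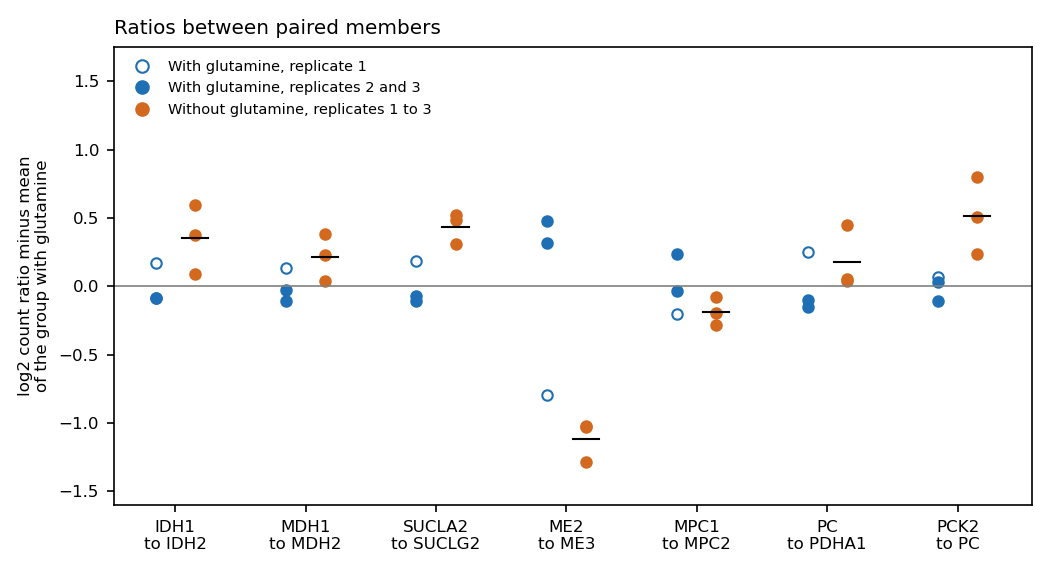
The vertical axis gives 7 log2 count ratios in each library after subtraction of the mean of the group with glutamine, so that the grey line at 0 is that mean. Black dashes mark the means without glutamine, and the blue and orange points do not overlap for SUCLA2 to SUCLG2, ME2 to ME3 and PCK2 to PC, whose differences are 0.44, -1.11 and 0.51.

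Other genes of the pathway, on a list of 50, were read the same way, and 49 of them were tested (PCK1 had too few counts). None passed the edgeR threshold. An unadjusted edgeR p under 0.05 was found for 16, or 32.7%, against 29.7% of all genes, and 15, or 30.6%, had groups that did not overlap, against 34.2% of all genes (9 higher and 6 lower without glutamine). DESeq2 called 7 of the 49, or 14.3%, against 14.4% of all genes, and limma-voom 0. Without replicate 1 of the group with glutamine, edgeR called 29 of 50, or 58.0%, against 41.3% of all genes (17 higher, 12 lower). GPT2, the mitochondrial alanine aminotransferase, which makes 2-oxoglutarate from glutamate, was at 63.4, 52.3 and 56.7 CPM with glutamine and at 80.1, 86.7 and 78.6 CPM without. Its log2 fold change was 0.51 (edgeR adjusted p = 0.0679). Beside it, GLUD1, glutamate dehydrogenase, had overlapping groups at a log2 fold change of 0.01.

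Genes next to PCK2, SLC25A1 and the malic enzymes were also read. ME1, the cytosolic malic enzyme, was at 2.18, 2.14 and 2.34 CPM with glutamine and at 2.59, 3.55 and 3.92 CPM without, a log2 fold change of 0.59 (edgeR adjusted p = 0.101) on the same side as ME3. ACLY, which splits the citrate that SLC25A1 exports, was at 384, 311 and 341 CPM with glutamine and at 401, 411 and 422 CPM without. Its groups did not overlap, with a log2 fold change of 0.25 (edgeR adjusted p = 0.121). SLC16A1, a carrier of lactate and pyruvate across the plasma membrane, was at 476, 370 and 404 CPM with glutamine and at 532, 571 and 566 CPM without (log2 fold change 0.42, edgeR adjusted p = 0.0742). Without replicate 1 with glutamine, edgeR called GPT2, ME1, ACLY and SLC16A1, where it called 41.3% of all genes.

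Genes that act on the pyruvate dehydrogenase complex differed among themselves. LIPT1 and LIPT2 take part in attaching lipoate to DLAT and DLST. LIPT2 had a log2 fold change of 0.53 (edgeR adjusted p = 0.0829) and LIPT1 one of -0.40 (edgeR adjusted p = 0.14), both without overlap and both called by edgeR without replicate 1 with glutamine. PDK1, which inactivates PDHA1 by phosphorylation, was at 88.6, 187 and 199 CPM with glutamine and at 125, 133 and 112 CPM without. Replicate 1 with glutamine was the lowest of all 6 libraries and the other 2 the highest, so the log2 fold change of -0.36 (edgeR adjusted p = 0.404) became -0.64 without it (edgeR adjusted p = 0.000219). PDK2, another kinase of PDHA1, was at 23.7, 12.6 and 13.0 CPM with glutamine and at 20.8, 21.0 and 24.3 CPM without, on the higher side (0.42, edgeR adjusted p = 0.277, and 0.78 without replicate 1, edgeR adjusted p = 0.000185). PDK4 was at 9.5, 1.9 and 3.0 CPM with glutamine and at 5.5, 4.6 and 5.7 CPM without. Here replicate 1 with glutamine was the highest of all 6 libraries and the other 2 the lowest. The log2 fold change of PDK4 was 0.13 (edgeR adjusted p = 0.884), and 1.11 without replicate 1 (edgeR adjusted p = 0.00153). PDP1, the phosphatase subunit that reverses the phosphorylation, had groups that did not overlap and a log2 fold change of 0.35 (edgeR adjusted p = 0.094). LDHA, which turns pyruvate into lactate, was at 392, 938 and 1036 CPM with glutamine and 486, 603 and 506 CPM without. As for PDK1, replicate 1 with glutamine was lowest and the other 2 highest. The log2 fold change of LDHA was -0.57 (edgeR adjusted p = 0.275), and -0.89 without replicate 1 (edgeR adjusted p = 8.15e-05).

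**Figure D5:**
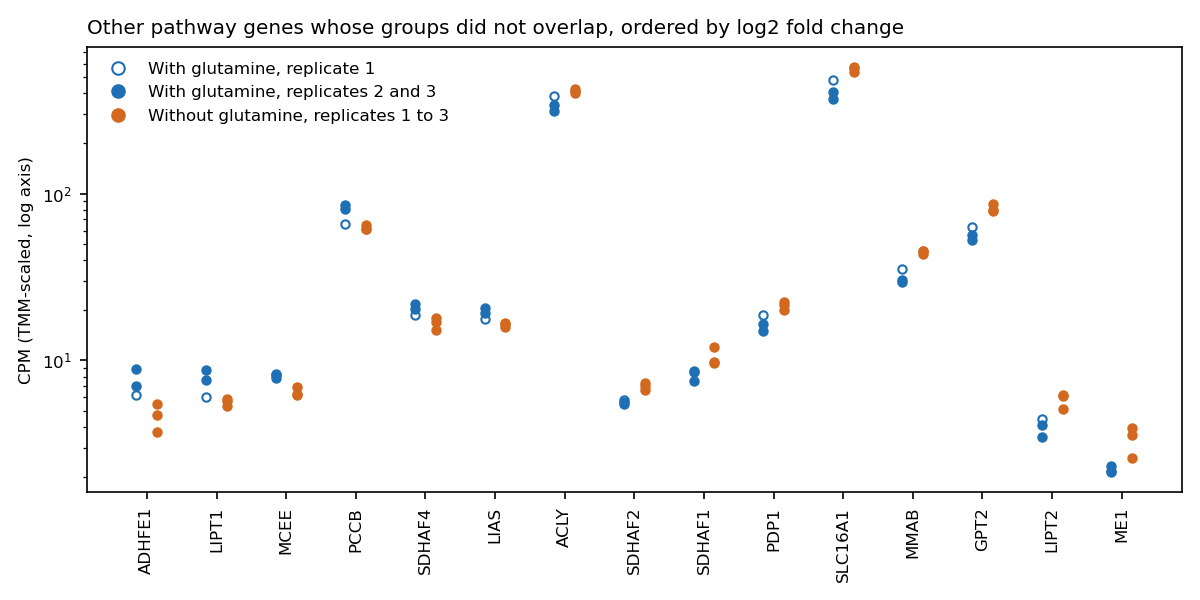
The logarithmic vertical axis gives the TMM-scaled CPM in each library of the 15 other pathway genes whose groups did not overlap, ordered by log2 fold change from ADHFE1 (-0.66) to ME1 (0.59). Blue is with glutamine (open for replicate 1) and orange is without, with 6 genes lower and 9 higher without glutamine, none past the adjusted edgeR threshold.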

How the data were processed

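The authors sequenced mRNA libraries from 6 samples. Per the submitters' processing notes, reads were handled with cutadapt, Trim Galore, FastQC and STAR 2.5.2b on GRCh38, and DESeq2 is named. The counting program, annotation release, strand setting and treatment of multiply aligned reads are not given in the sources used here. The authors deposited raw counts per Ensembl gene, used here. A second deposited table of normalized values was not used. GENCODE 29 gave symbols, positions and lengths (56531 of 60107 IDs matched). No blank or summary row was present.

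Genes were kept by filterByExpr (22613 genes, 99.9% of counts) and tested with edgeR 4.0.16 in R 4.3.3 (TMM, quasi-likelihood F test, legacy = FALSE, Benjamini-Hochberg adjustment over all genes kept). The SE is the absolute log2 fold change divided by the square root of F, and intervals are at 95%. Intervals cover these libraries only. Lengths were those of APPRIS principal transcripts. Ratios used counts plus 0.5. The test was checked on simulated data in which no library stood apart from its group, so the check does not cover that feature of these data. DESeq2 1.42.0, limma-voom 3.58.1, other scalings, filters and left-out libraries were alternatives. Same-numbered libraries of the 2 groups were not paired by the labels.

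The members, the lists and the alternatives were chosen with earlier results of these data known. Values of every library are given for members whose groups did not overlap or whose absolute log2 fold change was at least 0.3, and for 1 or 2 other members of a step. Other pathway genes were named when their groups did not overlap and they were among the 10 with the largest absolute log2 fold change, or when set beside a member. PCCB, MCEE and the assembly factors fall outside this rule and were chosen after their values were seen. PDK4, PDP1 and LDHA were named beside the pyruvate dehydrogenase complex, but not every gene of their lists was. The values of 1 gene on the list of other pathway genes are not reported here.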

Additional observations from a re-analysis of the deposited data

How the results depend on the processing

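Over all genes, edgeR called 1 gene, against 0 with upper quartile scaling, with library size scaling, with the legacy setting, with limma-voom and with the replicate block, 2 with no filter and 3065 with DESeq2. Leaving out 1 library gave 0 to 9573 called genes, the highest without replicate 1 with glutamine and 17 without replicate 1 without glutamine. Members called numbered 6 with DESeq2 and 0 to 15 with 1 library left out, and members without overlap 11 to 23. Of 495 member values under 15 alternatives, 447 kept their side and call. Another 21 became calls (15 members, under DESeq2 or without replicate 1 with glutamine) and 27 changed sign. The changes of sign fell in 9 members, of which PC, at 0.11 in the main fit, lay furthest from 0. With upper quartile scaling PDHB came to -0.025, DLAT to -0.0019, IDH3G to -0.029, DLST to -0.043 and FH to -0.016. DLST was -0.00086 with DESeq2 size factors and -0.0016 with library size. DLD was 0.0014 and SUCLG1 0.0027 with no filter, and SUCLG1 0.00022 with DESeq2. With 1 library left out the ranges were -0.056 to 0.10 for PDHB, -0.030 to 0.081 for DLAT, -0.074 to 0.091 for DLD, -0.031 to 0.044 for IDH3G, -0.027 to 0.053 for DLST, -0.045 to 0.065 for SUCLG1, -0.15 to 0.0091 for SUCLA2, -0.0045 to 0.085 for FH and -0.0052 to 0.18 for PC. Upper quartile scaling moved the median of all genes to -0.04 and the share of unadjusted edgeR calls that were higher from 49.6% to 38.0%. Same-numbered libraries did not deviate together (r of -0.02, 0 and 0.03), and with the replicate block the members' median was 0.07. With 3 libraries a group, ratios could not reach 0.05. The causes of these changes were not tested.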

Other observations

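Other routes into the cycle held values on both sides. MMAB, which makes the cobalamin cofactor of the mutase that delivers propionate carbon as succinyl-CoA, was at 35.4, 30.4 and 29.5 CPM with glutamine and at 43.3, 45.1 and 45.5 CPM without. The groups did not overlap, and the log2 fold change was 0.49 (edgeR adjusted p = 0.0679, DESeq2 adjusted p = 0.000758). In the same route PCCB, a subunit of propionyl-CoA carboxylase, and MCEE, the epimerase after it, had log2 fold changes of -0.31 and -0.32 and were not called by edgeR or DESeq2 with all 6 libraries. ADHFE1, which oxidises 4-hydroxybutyrate while making 2-hydroxyglutarate from 2-oxoglutarate, was at 6.21, 8.86 and 6.97 CPM with glutamine and at 5.45, 4.72 and 3.73 CPM without. Its log2 fold change was -0.66 (edgeR adjusted p = 0.089, DESeq2 adjusted p = 0.0149).

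Assembly factors of succinate dehydrogenase lay on both sides. SDHAF1, SDHAF2 and SDHAF3 had log2 fold changes of 0.35, 0.31 and 0.12, and SDHAF4 one of -0.28. None of these was called by edgeR in the fit of all 6 libraries. Without replicate 1 with glutamine, edgeR called 3 of the 4 assembly factors and 4 of the 6 propionate genes, where it called 41.3% of all genes.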
